A study of Drosophila melanogaster with 3 samples.

Results

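The peaks described here were called for the protein tap. They lay at promoters of noncoding RNA (ncRNA) genes and at no promoter of a protein-coding gene. A peak was taken when its summit, the point of highest signal, lay within 500 bp of an annotated transcription start of a gene of biotype ncRNA (Ensembl) and no protein-coding start lay within 500 bp. The rule uses position alone, not binding strength, and it took 748 of the 30000 peaks of the pooled list (2.49%). Of these 748 ncRNA-promoter peaks, 120 (16.0%) were also in the thresholded set, against 14.5% of all pooled peaks. The other 628 had lower pooled signals, and whether each of them is a binding site was not tested. The thresholded set holds 4336 peaks. It was made by the authors with the irreproducible discovery rate (IDR), a measure of how well peaks repeat between replicates. Among the 748, membership of the set followed the pooled signal. The weakest inside ranked 4330 in the pooled list and the strongest outside ranked 4406.

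Chromatin immunoprecipitation with sequencing (ChIP-seq) had been done on whole Drosophila melanogaster embryos of mixed sex, aged 6 to 16 h, from a transgenic line carrying tap with a GFP tag at its C-terminus. There was 1 group, tap-eGFP, with 3 biological replicates recovered with an antibody against GFP. Whole embryos mix every tissue, so a peak may come from a minority of cells, and the deposited lists hold no counts of reads, so sequencing depth cannot be given. Positions are those of dm6, and the signal is the authors' value for each peak, used here to describe peaks and to rank them within a list.

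The factor tap is a basic helix-loop-helix (bHLH) protein of the neurogenin family, whose members act in the nervous system and recognise the E-box, CANNTG with N for any base. Promoters of long noncoding RNA (lncRNA) genes are transcribed by the same polymerase as coding genes, and many such RNAs lie beside, inside or opposite to coding genes. Some have known roles in flies, among them the roX RNAs of dosage compensation, the heat-inducible nuclear RNA Hsromega and flam, the source of small RNAs that silence transposons.

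The sequence at the strongest of these sites was mostly rich in A and T, and some of the sites held an E-box. The 100 bases centred on the summits of 12 of the strongest thresholded peaks are given, because they carry the base composition and the motif content described further on. They are written 5′ to 3′ on the plus strand of the RefSeq copy of Release 6, the assembly of dm6, with every E-box in capitals. The windows were CR31044 at chr3R:29214390-29214489, CR31840 at chr2L:14024029-14024128, CR46036 at chr3R:17700525-17700624, CR44409 at chr2L:17430153-17430252, CR42657 at chrX:9687688-9687787 and CR45352 at chr2L:14022303-14022402, followed by CR44429 at chrX:15298433-15298532, CR45668 at chrX:5900131-5900230, CR45541 at chrX:9583889-9583988, CR44868 at chr2L:15912140-15912239, CR44676 at chr3L:19560780-19560879 and CR44867 at chr2L:15911202-15911301.
CR31044: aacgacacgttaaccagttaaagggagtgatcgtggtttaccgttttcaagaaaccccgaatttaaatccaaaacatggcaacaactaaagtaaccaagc
CR31840: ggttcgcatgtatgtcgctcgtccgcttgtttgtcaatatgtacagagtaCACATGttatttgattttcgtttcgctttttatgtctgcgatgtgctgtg
CR46036: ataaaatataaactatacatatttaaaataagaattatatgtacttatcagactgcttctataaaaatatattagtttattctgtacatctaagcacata
CR44409: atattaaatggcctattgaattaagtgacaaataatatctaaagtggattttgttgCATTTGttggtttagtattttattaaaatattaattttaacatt
CR42657: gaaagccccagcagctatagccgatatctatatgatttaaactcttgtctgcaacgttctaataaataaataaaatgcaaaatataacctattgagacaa
CR45352: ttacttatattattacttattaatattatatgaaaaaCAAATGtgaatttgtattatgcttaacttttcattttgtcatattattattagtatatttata
CR44429: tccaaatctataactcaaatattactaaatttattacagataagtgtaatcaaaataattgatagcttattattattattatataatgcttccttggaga
CR45668: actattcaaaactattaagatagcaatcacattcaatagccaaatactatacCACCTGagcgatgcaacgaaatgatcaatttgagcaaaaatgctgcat
CR45541: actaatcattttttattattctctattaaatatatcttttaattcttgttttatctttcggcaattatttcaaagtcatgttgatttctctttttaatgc
CR44868: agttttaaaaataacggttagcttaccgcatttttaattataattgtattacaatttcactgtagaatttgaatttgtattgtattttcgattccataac
CR44676: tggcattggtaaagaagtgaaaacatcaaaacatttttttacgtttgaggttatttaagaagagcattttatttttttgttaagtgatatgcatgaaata
CR44867: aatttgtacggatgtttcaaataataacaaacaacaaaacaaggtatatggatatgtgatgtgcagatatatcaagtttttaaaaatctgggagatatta
An E-box was present in 4 of these 12 windows. It was CACATG at CR31840, CATTTG at CR44409, CAAATG at CR45352 and CACCTG at CR45668. Over windows of this length, an E-box was found in 30% of the thresholded ncRNA-promoter peaks and in 36.0% of all 748, against 39.5% of all pooled peaks and 41.3% of windows centred on ncRNA starts. The GC content of the 12 windows ran from 14% to 42% with a median of 25%, and 8 of the 12 were under 30%. Of the 12, the lowest was at CR45352 and the highest at CR31840. Over all 120 thresholded ncRNA-promoter peaks GC made up 33.1%, so the 12 do not stand for the whole set.

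Replicate 3 stood apart from replicates 1 and 2, and its values are given separately for most measures. Each replicate list was filled to 30000 peaks, of which 727, 726 and 739 met the rule in replicates 1, 2 and 3 (730.7 ± 7.23, SD, n = 3). Of the 748 pooled peaks, 522 (69.8%), 500 (66.8%) and 427 (57.1%) had a summit within 200 bp in those lists. All 3 lists held 247 of them (33.0%, 95% Wilson interval 29.7 to 36.5), against 31.1% of all pooled peaks, 42.3% of the peaks at coding promoters only and 27.7% of the peaks at neither kind of promoter. Without replicate 3, the share found in both remaining lists was 49.6%. Here and below, intervals cover only the number of peaks counted, not the spread between embryos. Of the others, 248 were found in 2 lists, 212 in 1 and 41 in none.

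Among the 120 thresholded peaks, a set selected for repeating, the replicates were closer. In replicates 1, 2 and 3, 119, 120 and 107 of the 120 had a summit within 200 bp, and 106 (88.3%) had one in all 3 lists. Of the 14 that did not, 13 were missing in replicate 3 and 1 in replicate 1. Among the strongest 4336 peaks of their own list were 104, 96 and 79 of the 120, and 58 (48.3%) were so in all 3, against 47.7% of the thresholded peaks at coding promoters and 48.8% of those at neither kind. By signal, the thresholded ncRNA-promoter peaks of replicates 1 and 2 had a Spearman's rho of 0.80 over 119 peaks. With replicate 3 it was 0.65 for replicate 1 (n = 106 peaks) and also 0.65 for replicate 2 (n = 107 peaks). These coefficients are across peaks of lists that were each made with a control alignment, and they describe the lists only.

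Peaks at ncRNA promoters were strong less often than peaks at coding promoters and more often than peaks at neither, in each of the 3 replicates. In the pooled list, 16.0% of the ncRNA-promoter peaks were in the thresholded set (Wilson interval 13.6 to 18.8), against 24.8% (23.7 to 25.9) of the 6340 at coding promoters only and 11.4% (11.0 to 11.8) of the 22637 at neither. Of 275 peaks within 500 bp of starts of both kinds, which are not ncRNA-promoter peaks under the rule, 25.1% were thresholded. As a check within each replicate, 124, 121 and 130 ncRNA-promoter peaks were among the strongest 4336 of lists 1, 2 and 3, which is 17.1%, 16.7% and 17.6% (17.1% ± 0.464, SD, n = 3). The same share was 25.4%, 23.3% and 22.6% at coding promoters (23.8% ± 1.44, SD, n = 3) and 11.0%, 11.3% and 11.6% at neither (11.3% ± 0.316, SD, n = 3). The 3 classes did not overlap. The difference from coding promoters was -6.66 ± 1.65 percentage points (SD, n = 3), below 0 in 3 of 3 replicates, and that from peaks at neither was 5.80 ± 0.411 points, above 0 in 3 of 3. In an exact sign-flip permutation test over the replicates (two-sided) each gave p = 0.25, the smallest that 3 replicates allow, and 0.25 after adjustment over the 5 differences tested, so the design cannot pass a threshold of 0.05. The thresholded set was 2.77% ncRNA-promoter peaks, and the pooled list 2.49%. When the peak interval had to hold the ncRNA start, the thresholded share was 13.2%, below the 14.5% of all pooled peaks.

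**Figure D1:**
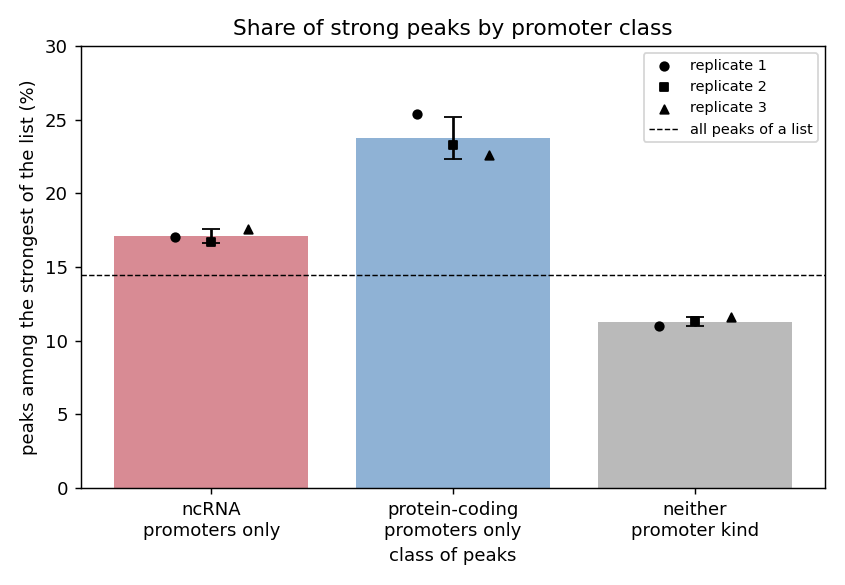
Share of peaks, in percent, that were among the strongest of their own replicate list, for peaks at ncRNA promoters only, at protein-coding promoters only and at neither; points are the 3 replicates, bars their mean and whiskers the SD. The ncRNA-promoter points lie between 16.7% and 17.6%, below all 3 coding-promoter points, above all 3 points for neither kind, and above the dashed line at the 14.5% of all peaks.

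The signal of the 748 peaks ran from 38.2 to 1923 with a median of 65.9, against a median of 85.2 at coding promoters and 60.5 at neither. The thresholded ncRNA-promoter peaks had a median of 262, against 248 for the whole thresholded set. Of the 100 strongest peaks of the pooled list, 6 were ncRNA-promoter peaks, against 2.49% of the whole list. This small count was not tested. At the edge of the thresholded set, the weakest inside it were at CR44206 (155.2), TS2 (154.6), CR44537 (154.5), CR45451 (154.0) and CR44467 (153.5, rank 4330 of the pooled list). The strongest outside it were at CR44930 (151.6, rank 4406), CR45281 (148.5), CR44256 (148.2), CR43337 (147.4) and CR44150 (146.7, rank 4616). At this edge the replicates disagreed. The peak of CR44206 ranked 4847, 5620 and 18854 in replicates 1, 2 and 3, whereas that of CR44930 ranked 8356, 3812 and 4004. The −log10 of the q-value was 3.23 at CR44206 and 3.25 at CR44930.

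The strongest ncRNA-promoter peaks were mostly at lncRNA genes known only by an annotation number, between or inside coding genes. The 25 strongest had pooled signals from 564 to 1923 and pooled ranks from 34 to 583. Each of the 25 was among the strongest 4336 peaks of all 3 replicates, with ranks no larger than 1222, 934 and 2319 in replicates 1, 2 and 3. The pooled list is made from these same replicates, so high ranks in them follow in part from the choice by pooled signal. The 25 peaks lay at 21 lncRNA genes, 3 genes annotated as antisense RNA (asRNA) and 1 other. Of these peaks, 16 were outside coding genes, 9 in introns of coding genes and 0 in their exons, and 12 of the RNAs overlapped a coding gene on the opposite strand while 13 overlapped none. The summit was upstream of the start for 17 of the 25 and downstream for 8.

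The strongest lay 169 bp upstream of CR44339 (FBgn0265427; dm6 2R from 12985019 to 12985387), an lncRNA gene 4204 bp from the nearest coding start, that of Psc, which encodes a Polycomb group protein. It had a pooled signal of 1923. In replicates 1, 2 and 3 the signals were 829, 871 and 223 and the ranks 20, 21 and 228. The peak of CR31044 (FBgn0051044; 3R from 29214261 to 29214599) was more even. It lay 122 bp upstream of the start, had a pooled signal of 1847 and ranked 45, 37 and 34 (mean 38.7 ± 5.69, SD, n = 3), with replicate signals of 661, 683 and 504. Its nearest coding start, that of the translation elongation factor gene eEF1gamma, was 5732 bp away. The peak of CR31840 (FBgn0051840; 2L from 14023922 to 14024300) lay 20 bp downstream of the start, had a pooled signal of 1651 and ranked 66, 79 and 24, so that replicate 3 was here the highest.

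Replicate 3 was far lower than replicates 1 and 2 at some of these sites and not at others. At CR46036 (3R from 17700394 to 17700742), an lncRNA gene opposite to osa, which encodes a subunit of a SWI/SNF chromatin remodelling complex, the peak lay in an intron of that gene and ranked 47, 31 and 740 in replicates 1, 2 and 3. At CR44409 (2L from 17430024 to 17430416), in an intron of Dif, which encodes a Rel-family factor of immunity, the ranks were 70, 39 and 823, and the summit lay 497 bp downstream of the start, close to the limit of the rule. At CR45352 (2L from 14022158 to 14022496) they were 101, 109 and 1807. In contrast, the peak of CR44810 (2R from 24329414 to 24329721), 4521 bp from the start of the C/EBP gene slbo, ranked 132, 124 and 70. Over the 25 strongest peaks replicate 3 gave the largest rank number of the 3 in 14 and the smallest in 10.

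**Figure D2:**
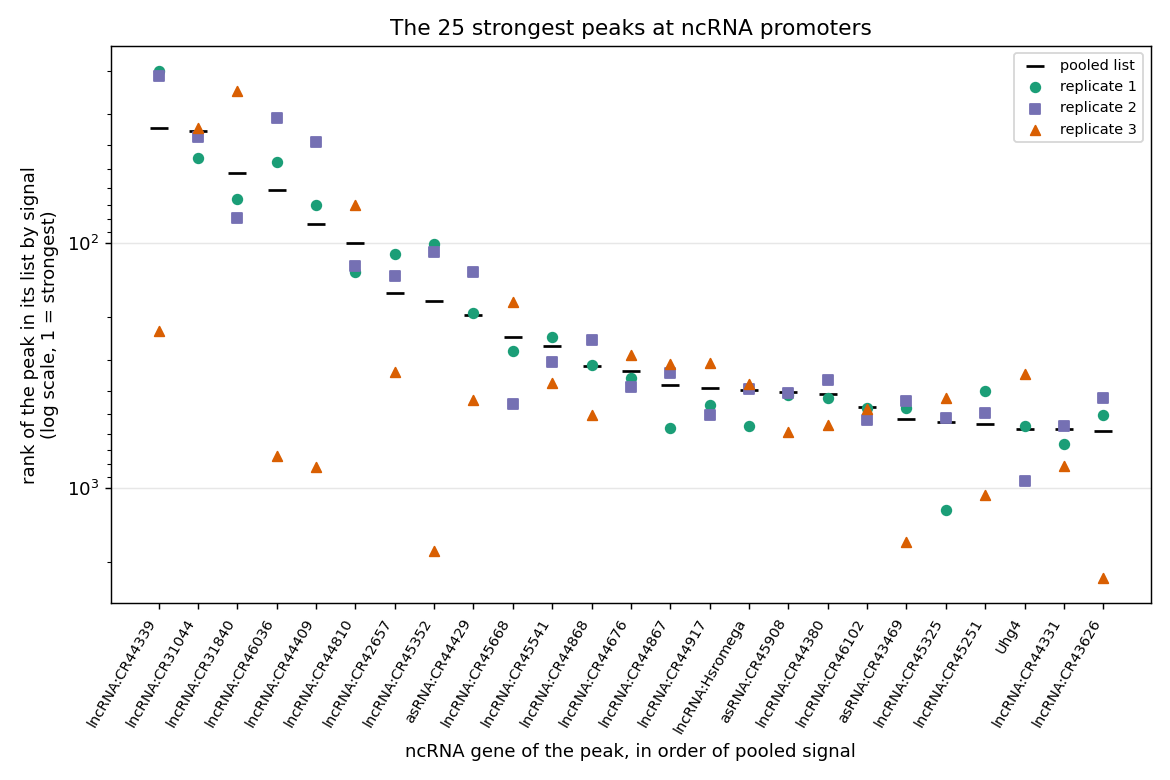
Rank of the 25 strongest ncRNA-promoter peaks by signal in the pooled list (dash) and in replicates 1, 2 and 3 (circle, square and triangle), on a log axis with rank 1 at the top, ordered by pooled signal. Replicates 1 and 2 lie close together at most genes, while replicate 3 is far below them at CR44339, CR46036, CR44409, CR45352, CR43469 and CR43626, and above them at CR31840 and CR44810.

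Several of these peaks had coding promoters just beyond the window. The peak of CR42657 (X from 9687564 to 9687890, signal 1044, ranks 111, 137 and 335) lay 672 bp from the start of nej, which encodes the fly CBP acetyltransferase. The peak of CR45668 (X from 5900038 to 5900317, signal 860, ranks 275, 453 and 175) lay 680 bp from that of Act5C, a cytoplasmic actin gene. The peak of asRNA:CR44429 (X from 15298314 to 15298647, signal 950, ranks 193, 132 and 436) lay 526 bp from that of gce, which encodes a juvenile hormone receptor. Each of them was nearer to an ncRNA start, at 451, 192 and 266 bp, and whether a signal there belongs to the ncRNA or to the coding promoter was not tested. Of the 748 peaks, 112 had the nearest coding start at up to 1000 bp, 356 from there to 5000 bp and 280 farther away. The thresholded share was 15.2% (Wilson interval 9.70 to 23.0), 18.8% (15.1 to 23.2) and 12.9% (9.43 to 17.3), with overlapping intervals.

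Some thresholded ncRNA-promoter peaks stood close together, and whether they did so more often than thresholded peaks of other classes was not tested. With thresholded ncRNA-promoter peaks joined when their summits were within 5000 bp, 9 of the 120 fell into 4 clusters. The largest, of 3 peaks, spanned 2497 bp on 2L, with the peaks of CR31840 and CR45352 (signals 1651 and 1007) and a further one of CR45352 at 184. Next to each other on 2L, 938 bp apart, lay the peaks of CR44867 (signal 708, ranks 567, 338 and 312) and CR44868 (772, ranks 314, 248 and 503), both with summits in an intron of beat-Ib, a gene of the Beaten path family of axon guidance that lies on the opposite strand. CR45251 on 3L had peaks of 584 and 282, 667 bp apart, and CR43650 on 2R had peaks of 180 and 177, 1499 bp apart. Over all 748, 579 genes had 1 peak, 122 had 2, 11 had 3 and 2 had 4. The 4 peaks of CR44206 included 1 thresholded, and those of CR45677 none. Near more than 1 ncRNA gene lay 61 of the peaks. In these counts the precursor and each mature RNA of a microRNA were taken as separate genes.

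Among ncRNA genes with a known role, Hsromega, Uhg4 and flam had a thresholded peak. Of 34 names listed for this comparison 27 were matched by symbol in the annotation. An ncRNA-promoter peak was found at 12 of the 27 (44.4%) and a thresholded one at 3 (11.1%), against 21.9% and 3.96% of all 3261 ncRNA genes. The 3261 include 741 microRNA entries, a kind absent from the 27, so the 2 sets are unlike. Among lncRNA genes with no coding start within 500 bp the shares were 29.9% and 5.82%. The strongest of these peaks was at Hsromega (FBgn0001234; 3R from 21296160 to 21296456), whose RNA gathers RNA-binding proteins in the nucleus after heat shock. Its summit lay 185 bp downstream of the start, the pooled signal was 688, and the signals in replicates 1, 2 and 3 were 227, 279 and 172, at ranks 558, 395 and 375. Uhg4, a host gene of small nucleolar RNAs, followed (2R from 9095044 to 9095374, signal 570, ranks 557, 934 and 342), with its summit 86 bp upstream of the start. The peak of flam (FBgn0267704; X from 21631636 to 21631744), a locus whose piRNAs silence transposons in the somatic cells of the ovary, lay 164 bp upstream of the start with a signal of 234 and ranks of 3961, 2490 and 2049. All 3 replicates thus held these 3 peaks among their strongest 4336.

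The other 9 were outside the thresholded set. The strongest of them was at yar, an lncRNA gene of sleep regulation between yellow and achaete, with a signal of 145.8 (pooled rank 4659) and ranks of 14766, 4566 and 4145. Next were RNaseMRP:RNA, the RNA of a ribosomal RNA processing enzyme (103.0, ranks 9163, 12969 and 28216), and Vinr (89.8, with no match in replicate 2). The peak of acal, an lncRNA gene of dorsal closure, had a signal of 84.9 and no match in replicate 2. The peak of sphinx, linked to male courtship, had 83.6. The dosage compensation RNA gene roX2 had a peak 16 bp from its start with a signal of 81.7 (rank 10670) and ranks of 11169, 13439 and 7400. The peak of iab8 in the bithorax complex had 69.3, that of the snoRNA host Uhg1 45.5 and that of noe 45.3. No pooled peak lay within 500 bp of the starts of 12 matched genes, roX1, bxd, iab4, PS4, let7C, cherub, Uhg3, Uhg7, CRG, RNaseP:RNA and both 7SLRNA genes. At Uhg2, Uhg5 and Uhg8 a peak lay nearby, and a coding start was within 500 bp of it as well.

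Divided by kind of RNA, 625 of the 748 peaks were nearest to a start of an lncRNA gene, 76 of an asRNA gene, 39 of a microRNA entry and 8 of another ncRNA gene. The thresholded share was 16.5% (103 peaks, Wilson interval 13.8 to 19.6) at lncRNA starts, 10.5% (8 peaks, 5.43 to 19.4) at asRNA starts and 15.4% (6 peaks, 7.25 to 29.7) at microRNA entries. These intervals overlap. Of the 8 thresholded peaks at asRNA genes, that of CR44429 was the strongest, followed by CR45908, opposite to CG1943 (3R from 7075728 to 7075957, signal 680, ranks 418, 411 and 592), and by CR43469, opposite to Balat (signal 599, ranks 470, 440 and 1657). At microRNAs the annotated start is that of the precursor or the mature RNA and not of the primary transcript. The strongest of these peaks lay near mir-9377 in an intron of Tis11 (signal 519, ranks 554, 938 and 666). Near bantam (mir-ban), a microRNA of tissue growth, a thresholded peak at 3L from 642478 to 642853 had a signal of 251 and ranks of 1966 and 1467 in replicates 1 and 2, and replicate 3 had no summit within 200 bp.

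By place, 490 of the 748 summits lay outside coding genes, 216 in introns of coding genes and 42 in their exons. Thresholded were 81 (16.5%, Wilson interval 13.5 to 20.1) outside coding genes, 37 (17.1%, 12.7 to 22.7) in introns and 2 (4.76%, 1.32 to 15.8) in exons. The ncRNA gene overlapped no coding gene for 467 of the peaks, a coding gene on the opposite strand for 200, on its own strand for 73 and on both for 8. The thresholded share was 15% (10.7 to 20.6) with an antisense overlap and 16.3% (13.2 to 19.9) without any overlap. In 6 of the 748 a start of a tRNA, snoRNA, snRNA or rRNA gene was within 500 bp, and 3 of these 6 were thresholded. By chromosome arm the density was 8.46 peaks per Mb on 2L (199 peaks), 5.50 on 2R (139), 6.47 on 3L (182), 4.77 on 3R (153), 5.19 on 4 (7) and 2.89 on X (68). Annotated ncRNA genes numbered 804 on 2L, 558 on 2R, 656 on 3L, 730 on 3R, 30 on 4 and 483 on X. Whether the density of peaks goes with the number of genes was not tested. Chromosome 4 had no thresholded ncRNA-promoter peak.

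Seen from the genes, 672 of 2705 ncRNA genes with no coding start within 500 bp had an ncRNA-promoter peak (24.8%, Wilson interval 23.3 to 26.5), and 123 (4.55%, 3.82 to 5.40) had a thresholded one. In replicates 1, 2 and 3 the first share was 24.1%, 24.4% and 24.7% (24.4% ± 0.314, SD, n = 3). For protein-coding genes the count was wider and is not like for like. It took all of them, and any peak within 500 bp of a start, also one near an ncRNA start. Of these 13945 genes, 37.8% (37.0 to 38.6) had a promoter peak and 13.9% a thresholded one. The replicate lists gave 40.8%, 43.0% and 45.7% (43.2% ± 2.42, SD, n = 3). By kind, the share was 29.9% (27.7 to 32.1) for lncRNA genes, 16.2% (12.6 to 20.6) for asRNA genes and 16.9% (14.2 to 19.9) for microRNA entries. The interval of the lncRNA genes did not overlap those of asRNA genes and microRNA entries. Precursor and mature entries of a microRNA share positions, and asRNA genes are annotated for lying opposite to other genes, so the kinds are not equal in surroundings.

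The summits were not gathered at annotated ncRNA starts the way they were at annotated coding starts. How exact the annotated starts are was not tested. Some lncRNA genes on 2R have the same last digits at both ends, such as CR44467 (16849095 to 16849895) and CR44284 (9183395 to 9184495). The median distance of the summits from the nearest annotated start was 232 bp (quartiles 107 and 373), against 138 bp (63 and 269) at coding promoters. In replicates 1, 2 and 3 the medians were 230, 237.5 and 224 bp (230.5 ± 6.76, SD, n = 3) at ncRNA promoters and 147, 150 and 122 bp (139.7 ± 15.4, SD, n = 3) at coding promoters. From 0 to 500 bp in steps of 100 bp, the number of summits was 174, 159, 134, 135 and 146, and of thresholded ones 22, 28, 21, 23 and 26. The thresholded share in these steps was 12.6%, 17.6%, 15.7%, 17.0% and 17.8%, with overlapping Wilson intervals. Just inside the window, at 451 to 500 bp, lay 75 peaks with 16 thresholded, a median signal of 60.6 and a highest of 1340. Just outside, at 501 to 550 bp, lay 63 with 15 thresholded, a median of 74.4 and a highest of 1509. At the other limit of the rule, the ncRNA-promoter peaks at 501 to 550 bp from a coding start numbered 13, with 3 thresholded (23.1%) and a median signal of 63.9. The peaks left out at 451 to 500 bp from one, with an ncRNA start within 500 bp, numbered 18, with 6 thresholded (33.3%) and a median of 88.8.

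**Figure D3:**
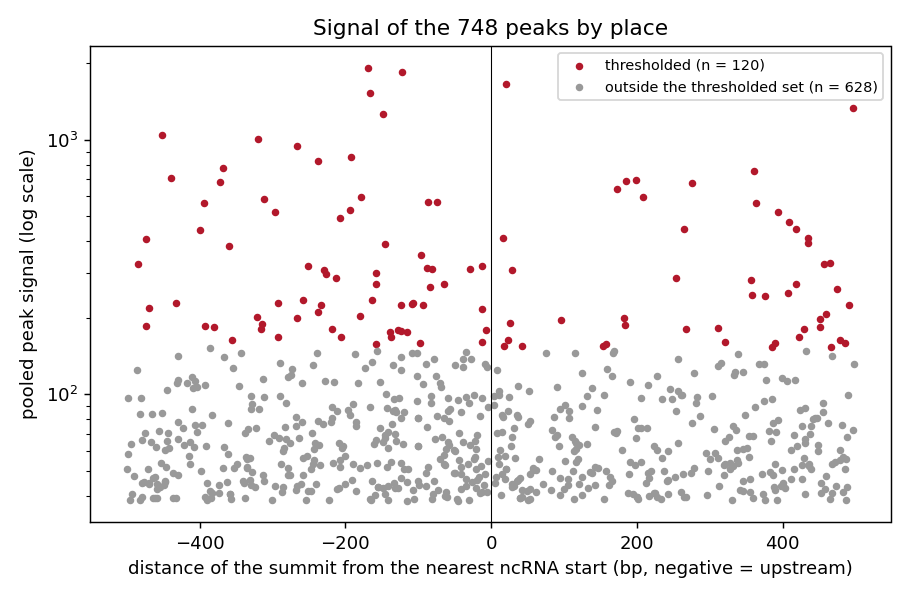
Pooled signal of each of the 748 ncRNA-promoter peaks (log axis) against the distance of its summit from the nearest ncRNA start in bp, with upstream negative; red points are the 120 thresholded peaks and grey points the 628 others. Thresholded peaks occur at all distances up to the limit of 500 bp, and few of the upper points lie in the first 150 bp downstream of the start.

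A window of fixed width collects peaks by position even where they have no relation to a start, so the density about starts was compared with that farther away. For this, 1246 ncRNA starts, microRNAs left out, with no coding start within 2500 bp, and 3949 coding starts isolated in the same manner, also from ncRNA starts, were used. Within 100 bp of the isolated ncRNA starts lay 84 pooled summits, and 819 lay at 1000 to 2000 bp, a ratio of densities of 1.03. The ratio was 0.999, 1.14 and 1.24 in replicates 1, 2 and 3 (1.13 ± 0.120, SD, n = 3). At isolated coding starts it was 3.23 in the pooled list (540 and 1673 summits) and 3.14 ± 0.379 in the replicates (SD, n = 3). The difference was -2.01 ± 0.300 (SD, n = 3), below 0 in 3 of 3 replicates (exact sign-flip permutation p = 0.25, two-sided, the smallest possible). Thresholded summits gave 1.14 (10 and 88) at ncRNA starts, against 4.09 (90 and 220) at coding starts. This measure was chosen after the values had been seen, and it takes the annotated starts as exact. It joins both sides of the start, which differed among the strong peaks, as given below.

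**Figure D4:**
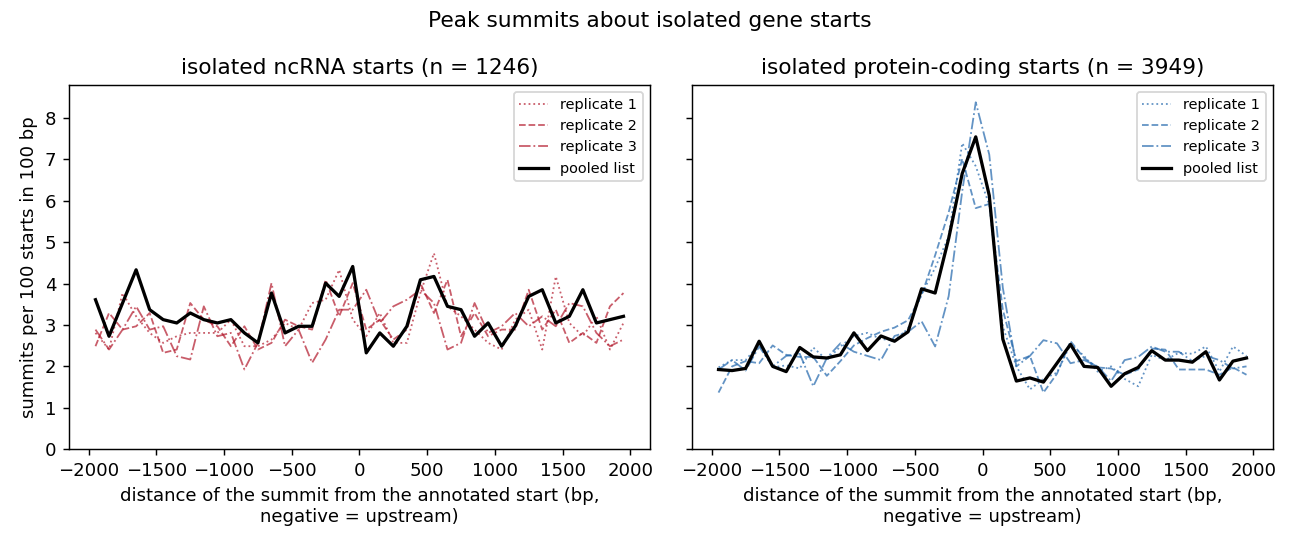
Number of peak summits per 100 isolated starts in steps of 100 bp against the distance from the start, with upstream negative, at ncRNA starts (left) and at protein-coding starts (right); black lines are the pooled list and coloured lines the 3 replicates. The line for coding starts has a peak over the start, while the pooled line for ncRNA starts runs between 2.33, in the first 100 bp downstream, and 4.41, in the last 100 bp upstream.

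Strong peaks about the isolated ncRNA starts were unevenly placed between upstream and downstream. Of the thresholded summits, 27 lay in the 300 bp upstream and 6 in the 300 bp downstream. Among the strongest 4336 peaks of replicates 1, 2 and 3 these numbers were 27 and 5, 28 and 7, and 30 and 10. At isolated coding starts the thresholded summits numbered 200 upstream and 44 downstream. From 300 to 700 bp the order at ncRNA starts was the opposite, with 18 thresholded summits upstream and 35 downstream, and with 23 and 41, 22 and 35, and 17 and 28 among the strongest of replicates 1, 2 and 3. At coding starts it was 102 upstream and 35 downstream. The full pooled list showed less of it, with 151 summits in the 300 bp upstream of ncRNA starts and 95 in the 300 bp downstream, and in replicate 3 the downstream side held more (117 and 129). These windows were chosen after the values had been seen.

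The summits of the strong ncRNA-promoter peaks were poor in GC. In the 100 bp about the summit, GC made up 33.1% at the thresholded ncRNA-promoter peaks, against 42.0% at points 500 bp to each side, a difference of -8.92 points. The difference was -11.3 points for thresholded peaks at coding promoters and -9.59 for those at neither. Outside the thresholded set it was -0.533 points at ncRNA promoters, with 40.9% at the summit and 41.4% beside it. Replicate 3 differed from the other replicates in this measure. For all ncRNA-promoter peaks of a list the difference was -3.63, -3.37 and 3.40 points in replicates 1, 2 and 3, and for those among the strongest 4336 it was -9.88, -11.6 and -1.67. The other classes had the same offset, with -5.53, -5.64 and 0.881 points at coding promoters and -4.32, -3.90 and 2.32 at neither in replicates 1, 2 and 3. Over all peaks of a list, ncRNA-promoter summits were less depleted than coding-promoter summits by 2.23 ± 0.312 points (SD, n = 3, in 3 of 3 replicates), and less than summits at neither by 0.766 ± 0.282 (3 of 3), each with exact sign-flip permutation p = 0.25, the smallest possible. Among the strongest 4336 the values in replicates 1, 2 and 3 were -12.0, -13.1 and -4.91 points at coding promoters, below the ncRNA-promoter value in each, and -10.0, -10.0 and -4.05 at neither, below it in replicates 1 and 3 and above it in replicate 2. At the isolated ncRNA starts themselves, the same measure was -0.616 points.

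**Figure D5:**
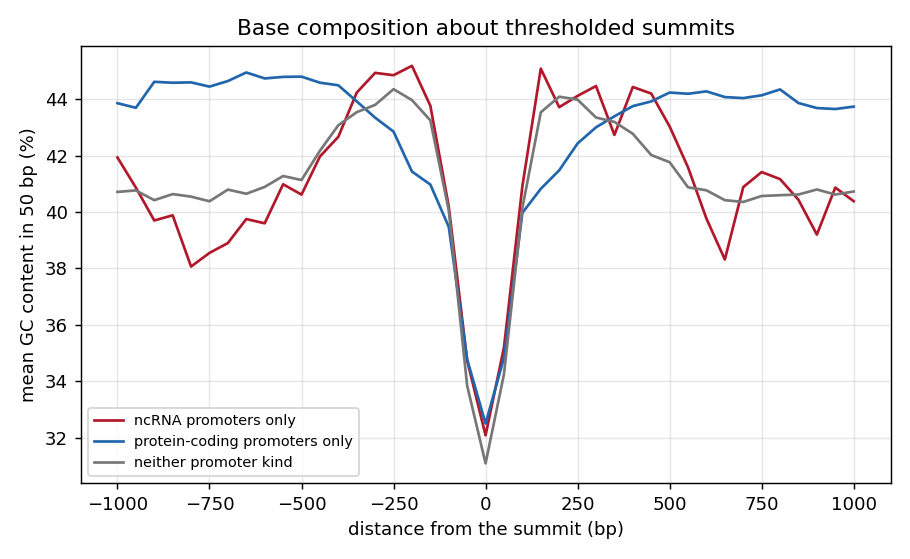
Mean GC content, in percent over 50 bp, against the distance from the summit in bp, for thresholded peaks at ncRNA promoters only (red), protein-coding promoters only (blue) and neither (grey). All 3 lines fall to between 31.1% and 32.5% at the summit; on the shoulders the ncRNA-promoter line reaches 45.2% at 200 bp to the left, against 41.4% for coding promoters and 44.0% for neither, and 800 bp to the left it is at 38.1%, below the 44.6% of coding promoters.

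E-boxes of all sequences, CANNTG, had no common direction at these summits across the replicates. Some single E-box sequences kept 1 direction, which 3 replicates can also share by chance. An E-box on either strand stood in the 200 bp about the summit of 62.2% of the 748 peaks (Wilson interval 58.6 to 65.6) and in 68.2% of the windows beside them. Of the 120 thresholded peaks 71 (59.2%) had one, against 70% beside them. All pooled peaks had one in 64.4% and windows on all ncRNA starts in 65.0%. In replicates 1, 2 and 3 the difference between summit and flank was -2.68, -5.10 and 4.47 points, and its mean was -3.89 without replicate 3 and 0.892 without replicate 2. Among the strongest 4336 peaks it was -12.5, -14.9 and 1.15 points.

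Of the 10 E-box sequences, CATATG was more frequent at the summit in all 3 replicate lists, and 3 others were less frequent in all 3, with both strands searched. CATATG was in 9.49% of summit windows and 8.22% of flank windows, and the difference was 1.72, 1.24 and 2.10 points in replicates 1, 2 and 3. It was in 13 of the 120 thresholded windows (10.8%), 7.99% of all pooled peaks and 5.28% of ncRNA starts. An excess of CATATG was not particular to ncRNA promoters. Its pooled difference was 1.27 points here, 0.450 at coding promoters only and 1.74 at neither. With windows of another width the pooled difference of CATATG turned, to -0.201 points with 100 bp and -0.602 with 400 bp. CAAATG was in 20.3% of summit windows and 23.1% of flank windows, with differences of -1.65, -1.79 and -1.89 points. Among the strongest 4336 peaks of replicates 1, 2 and 3, CAAATG stood at 11.3%, 14.9% and 16.2% of summits, against 23.4%, 26.4% and 28.1% of flanks, and CATATG at 12.1%, 14.0% and 11.5% of summits, against 7.26%, 6.61% and 6.92%. CAATTG was in 7.22% of summit windows and 9.36% of flanks (differences of -2.75, -1.31 and -1.01 points), and CAGATG in 7.35% and 9.96% (-1.65, -3.31 and -0.406). Among the strongest 4336 peaks CAATTG did not keep its direction, with differences of 0, -1.24 and 1.15 points in replicates 1, 2 and 3. Those of CAGATG were -8.47, -4.55 and -1.54. The other 6 sequences did not keep 1 direction. For CAGCTG the differences were -0.963, -0.895 and 1.42 points, and for CACGTG -0.275, -0.344 and 1.29. No test was run on single motifs, so a direction shared by 3 replicates is a description only.

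Motifs rich in A and T were more frequent at the strong summits of replicates 1 and 2 than beside them, and not at those of replicate 3. TATAAA, the core of the TATA box, was searched on both strands in the same 200 bp, and its last bases can be shared with a run of A. It stood in 47 of the 120 thresholded windows (39.2%), against 25% beside them, 30.1% of all pooled peaks and 23.3% of ncRNA starts. Thresholded peaks at coding promoters had it in 40.2% and those at neither in 38.7%. Among the strongest 4336 peaks of replicates 1, 2 and 3 it was in 41.1%, 45.5% and 31.5% of the ncRNA-promoter summits, against 26.6%, 24.8% and 31.5% of their flanks. Over all ncRNA-promoter peaks of a list the difference was 4.88, 10.6 and -6.02 points.

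A run of AAAAAA or TTTTTT was in 54 of the 120 thresholded windows (45.0%), against 32.5% beside them, 37.8% of all pooled peaks and 33.1% of ncRNA starts. Over all 748 peaks it was in 34.4% of summits and 34.6% of flanks. Among the strongest peaks of replicates 1, 2 and 3 the difference was 14.5, 13.6 and -0.385 points, and over all ncRNA-promoter peaks -0.0688, 3.99 and -9.07. GAGAG, the core of sites of the GAGA factor, was in 26.1% of the 748 summits and 23.2% of flanks, but in 24.2% of the thresholded summits and 25.8% of their flanks. Its difference over all ncRNA-promoter peaks was 2.89, -1.58 and 7.10 points in replicates 1, 2 and 3, with no common direction.

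A motif of coding promoters was rare at the ncRNA promoters. The DNA replication-related element in the form TATCGATA, a palindrome bound by the factor Dref at many housekeeping genes, was in 4 of the 748 summit windows (0.535%, Wilson interval 0.208 to 1.37), and in 0.468% of the flanks. At coding promoters only it was in 3.68% of the pooled summits and 4.58% of the thresholded ones, and it was in 0.353% of the pooled summits at neither. None of the 120 thresholded ncRNA-promoter windows held it, while 0.974% of windows on all ncRNA starts did. CAGGTAG, the site of the early embryonic factor Zelda, was in 0.535% of the 748, against 1.14% of flanks, with differences of -0.550, -0.620 and 0.203 points in replicates 1, 2 and 3.

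Of the developmental genes listed, Hox and bHLH genes were the nearest coding genes of a larger share of the ncRNA-promoter peaks than of all pooled peaks. For Hox genes there were 8 of the 748 (1.07%, against 0.330% of all pooled peaks), 5 of them nearest to Dfd, 2 to Antp and 1 to Abd-B. For proneural and related bHLH genes there were 7 (0.936%, against 0.170%), 5 of them nearest to Oli, 1 to dimm and 1 to tap itself. None of these 15 was thresholded, where 16.0% of the 748 were, a share too small to read anything from 15 peaks. The peak nearest to tap lay at CR45688 (3L from 17366968 to 17367343), with a signal of 71.7, a pooled rank of 12893 and ranks of 27903, 15902 and 7761 in replicates 1, 2 and 3. The strongest near Dfd was at CR45915 (signal 99.8, ranks 9786, 19605 and 9213), and the strongest near Oli at CR45698 (73.5, with no match in replicate 1 and ranks of 10477 and 15044 in replicates 2 and 3). For the Notch pathway and the Enhancer of split complex there were 3 (0.401%, against 0.360%). For neuroblast factors there were 2 (0.267%, against 0.297%), of which 1, at CR44977, was thresholded (2L from 19159250 to 19159625, signal 175, ranks 4264, 2499 and 5702). CR44977 lies opposite to the translational repressor gene brat, and the summit was in an intron of brat. Peaks of 1 neighbourhood share that neighbourhood, and these shares carry no test.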

How the data were processed

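ChIP-seq peak lists of 3 biological replicates of tap-eGFP embryos were used, 1 list for each replicate, 1 for the pooled replicates and 1 thresholded set. Per the notes deposited with the samples, each replicate list was made from 1 replicate and 1 control, the pooled list from the 3 replicates, with the IDR step run on all 4 lists to give the thresholded set. Which aligner, peak caller and thresholds were used is not given in the sources used here. The control was not analysed here. Fragments were 200 to 800 bp long and the genome was dm6, per the labels. Each peak's signal value is as deposited by the authors, on a scale that differed between lists. The −log10 of the q-value is also the authors', and served only as an alternative ranking. Reads were not counted, so depth and counting error are unknown.

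Starts of all transcripts were taken from Ensembl release 115, on 6 chromosome arms, and sequence from RefSeq. Biotype ncRNA held 3261 genes, 1944 of them lncRNA, 503 asRNA, 741 microRNA entries (260 precursor genes and 481 mature RNAs) and 73 others. A peak was found in a replicate when a summit lay within 200 bp. Replicate shares were taken among the 4336 strongest peaks of each list, the size of the thresholded set. Differences between classes were tested over the replicates with an exact two-sided sign-flip permutation test and Benjamini-Hochberg adjustment over 5 differences. Whether replicates came from separate embryo collections is given only as biological replicate in the labels. The scripts were tested on simulated peaks. They used Python 3.11.15, numpy 2.4.6, pandas 2.3.3, scipy 1.17.1 and matplotlib 3.10.9.

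The rule for named genes took the 25 strongest thresholded peaks, the 5 weakest inside and 5 strongest outside that set, the genes with the most peaks, a list of known ncRNAs and lists of neighbouring coding genes. Genes of the other kinds and clusters given beside these were picked after their values were seen. Members and lists were chosen with earlier results of these data known. The density about isolated starts and the motif shares of the strongest peaks of each replicate were added after the lists had been seen. Alternatives were other start windows, match distances, ranking by q-value, window widths for sequence, and leaving out each replicate.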

Additional observations from a re-analysis of the deposited data

How the results depend on the processing

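The number of ncRNA-promoter peaks followed the window, at 333 with 200 bp, 1390 with 1000 bp and 348 when the peak interval had to hold the start, and the median distance was then 94 bp with 200 bp and 463 bp with 1000 bp. The share in the thresholded set was 13.2% with the interval rule, below the 14.5% of all pooled peaks where the 16.0% of the main rule was above it. With the 2168 strongest peaks of that set alone it was 8.29%, against 7.23% of all pooled peaks. The share found in all lists was 21.9% with a match within 100 bp, 52.3% within 500 bp, and 39.8% to 49.6% on leaving out 1 replicate, which asks for 2 lists in place of 3. The summit minus flank difference of E-boxes was -0.869 points with 400 bp windows. Its replicate mean ran from -3.89 to 0.892 on leaving out 1 replicate. The share of ncRNA genes with a peak was 21.9% over all such genes, 12.6% with 200 bp and 36.7% with 1000 bp. The cause of these shifts was not tested beyond what the windows themselves set.

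Without microRNA entries 711 peaks remained under the rule and 16.0% were thresholded. The difference in strong peaks from coding promoters was -7.48 to -5.83 points on leaving out 1 replicate and -6.95 with ranking by q-value, and that from peaks at neither kind 5.66 to 6.04 and 5.59. Differences between classes of peaks were taken within each replicate. All samples belong to 1 group, so no replicate block between groups of samples could be fitted. Depth is unknown, so absence from a list is not absence of binding. With 3 replicates no exact p below 0.25 can be reached. Whole embryos mix tissues, and no control was analysed here.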
